A study of Mus musculus with 36 samples.

Results

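Alveolar macrophages of adult wild-type mice were profiled before and after transfer into the lungs of other mice. The comparison set 4 arrays of AM-derived macrophages, recovered from the recipients, against 4 arrays of the donor alveolar macrophages, taken straight from the donors. These 8 arrays, chosen by their titles, were part of a series of 36 arrays in 9 groups of 4. AM-derived macrophages descended from alveolar macrophages that were placed through the nose into newborn Csf2rb-/- mice. They were sorted from lung lavage fluid 6 weeks after transfer by the donor's congenic CD45.1+CD45.2+ marks. The donor alveolar macrophages came from lavage of wild-type CD45.1+CD45.2+ C57BL/6 mice of 6 to 12 weeks and were also purified by flow cytometry. Native alveolar macrophages of wild-type mice of 6 weeks, also 4 arrays, gave a reference of untransferred cells from other mice. In the series' other derived groups the transferred cells were adult bone marrow monocytes, E15.5 fetal liver monocytes or E12.5 yolk sac macrophages (BM-, FL- and YS-derived, 4 arrays each). The AM-derived cells differed from the donor cells in host, in time since donation and in the genotype of the surrounding lung together, so these factors cannot be told apart here. The labels call the arrays of a group biological replicates and do not state whether animals were pooled, so p-values measure the spread between these samples.

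Alveolar macrophages live in the air spaces, where they take up and break down surfactant lipid and clear dead cells. Their development and their handling of lipid depend on the growth factor GM-CSF, which signals through a receptor with the beta chain encoded by Csf2rb and maintains the nuclear receptor PPAR-gamma. Mice without Csf2rb have no mature alveolar macrophages of their own and accumulate surfactant, and wild-type cells placed in their airways can fill that space.

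A set of 4 promoter windows was set out because they belong to the genes with the largest changes that had an entry in the RefSeq table (build GRCm38.p6), with 250 bases before the annotated start and 50 bases from it. AA467197, Ddah1 and Mmp12 were higher in AM-derived macrophages and Emb was lower. Scd1 and Fn1 are named only. Capitals mark matches to motif letters searched on both strands. For Mmp12, which had 2 windows, the first is shown.
AA467197, chr2:122637637-122637936, plus strand: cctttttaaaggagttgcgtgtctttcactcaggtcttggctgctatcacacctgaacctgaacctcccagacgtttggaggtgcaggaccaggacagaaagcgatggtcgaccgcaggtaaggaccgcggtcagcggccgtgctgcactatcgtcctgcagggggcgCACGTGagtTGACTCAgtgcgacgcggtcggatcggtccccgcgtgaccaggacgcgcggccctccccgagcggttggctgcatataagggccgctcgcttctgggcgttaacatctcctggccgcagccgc
Ddah1, chr3:145758442-145758741, plus strand: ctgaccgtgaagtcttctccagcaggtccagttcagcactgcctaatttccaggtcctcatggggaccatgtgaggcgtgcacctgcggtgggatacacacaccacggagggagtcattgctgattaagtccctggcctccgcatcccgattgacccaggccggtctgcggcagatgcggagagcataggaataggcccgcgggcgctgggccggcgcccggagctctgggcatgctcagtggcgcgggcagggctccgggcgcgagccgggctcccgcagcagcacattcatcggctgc
Mmp12, chr9:7344147-7344446, plus strand: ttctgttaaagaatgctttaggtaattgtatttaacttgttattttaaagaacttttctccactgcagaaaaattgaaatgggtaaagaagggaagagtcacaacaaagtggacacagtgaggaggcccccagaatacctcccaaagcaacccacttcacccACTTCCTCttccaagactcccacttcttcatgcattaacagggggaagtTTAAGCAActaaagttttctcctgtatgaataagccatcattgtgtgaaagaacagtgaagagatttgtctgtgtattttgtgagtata
Emb, chr13:117220323-117220622, plus strand: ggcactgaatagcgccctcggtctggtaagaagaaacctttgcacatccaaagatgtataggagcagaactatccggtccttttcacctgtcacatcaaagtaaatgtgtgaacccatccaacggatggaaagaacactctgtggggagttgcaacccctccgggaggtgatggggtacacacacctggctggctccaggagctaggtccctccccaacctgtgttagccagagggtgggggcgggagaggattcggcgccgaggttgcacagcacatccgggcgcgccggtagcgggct
In the AA467197 window an E-box (CACGTG) began at position -82 and an AP-1 motif (TGANTCA) at position -73 from the start, and these did not overlap. In the Mmp12 window a PU.1 motif (GAGGAAGT, here on the minus strand) began at position -88 and a C/EBP motif (TTNNGCAA) at position -39. The Ddah1 and Emb windows held no match to these letters, nor to a cyclic AMP element (TGACGTCA), a TATA box (TATAAA) or the spaced repeats of PPAR and LXR partners. Over all genes higher in AM-derived macrophages, 39 had a window, and 5 of them held the AP-1 letters. Of the lower genes 27 had a window, and 2 of them held these letters. The same letters stood in 7.93% of all 27025 RefSeq promoter windows and in 5.25% of the windows of the genes tested. The E-box letters stood in 5 of the 39 windows of higher genes and in 4 of the 27 windows of lower genes, against 7.24% of all windows and 10.2% of those of the genes tested. For the C/EBP letters the counts were 4 of 39 and 1 of 27, against 8.05% of the windows of the genes tested. For the PU.1 letters they were 1 of 39 and 0 of 27, against 3.22%.

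Values are RMA-normalised log2 intensities, and a level under 4.62, the median of the whole table, was treated as dim. Among 12244 genes tested, the correlation of an array with its fellow arrays, on average, ran between 0.975 and 0.979 for AM-derived macrophages and between 0.963 and 0.977 for donor alveolar macrophages, in which replicate 4 was lowest. On a list of alveolar macrophage identity, 0 of the 29 genes on the array were dim in both groups. Siglecf, a lectin of alveolar macrophages, read 9.53, 9.52, 9.11 and 9.15 in AM-derived macrophages, against 9.71, 9.71, 9.79 and 9.36 in donor cells. Csf2rb, which the recipients lack, averaged 9.65 ± 0.21 in AM-derived macrophages and 9.59 ± 0.45 in donor cells (SD, n = 4 each). The level in cells of the recipients was not analysed here. The female transcript Xist and the Y-linked Eif2s3y both exceeded the table median on all 8 arrays. The mean over a list of 7 sex-linked genes ran between 6.72 and 7.13 on AM-derived arrays and between 6.80 and 7.20 on donor arrays. On native 6-week arrays it ran lower, between 6.14 and 6.67. What this means for the comparisons with native cells was not tested.

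Few genes passed the test between macrophages recovered after 6 weeks in a recipient lung and the same kind of cell before transfer. Of 12244 genes, 86 (0.702%) passed an adjusted p of 0.05 in limma. AM-derived macrophages were higher than donor cells for 49 (0.4%) and lower for 37 (0.302%), with at least a 2-fold difference of fitted values for 28 and 16 of them. AA467197, Ddah1, Mmp12, Scd1 and Mfge8 led the rises, and Fn1, Emb and Inka1 led the falls. For 95.6% of the genes tested the 95% interval of the difference lay within a log2 difference of 1 in either direction. The smallest difference that passed was 0.59. Without adjustment, 1041 genes (8.50%) had a p under 0.05.

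The 4 arrays of each group did not overlap for 83 of the 86 genes, of which 48 were higher and 35 lower in AM-derived macrophages. Over all genes tested, non-overlap held for 4.46%. The 86 genes were called on these same arrays, so their non-overlap is largely set by that choice and adds no support. The test borrowed the spread of all 9 groups. With the 8 arrays alone, 45 genes passed, and 37 of the 86 were among them. Without AM-derived replicate 4 the count of lower genes was 23, and with both arrays numbered 4 left out, a choice made after the data were seen, 29 genes were higher and 18 lower. Across 18 other settings 26 of the 86 passed in each setting that tested them. Among these were AA467197, Ddah1, Mmp12, Scd1, Mfge8, Msr1, Pdk4, Raet1d, Awat1, Rgcc, Ch25h, Lpcat2, Fn1, Emb, Inka1, Arhgap15, Krt80 and St8sia4. A stricter filter, above 6 in at least 4 arrays, tested only 76 of the 86.

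**Figure D1:**
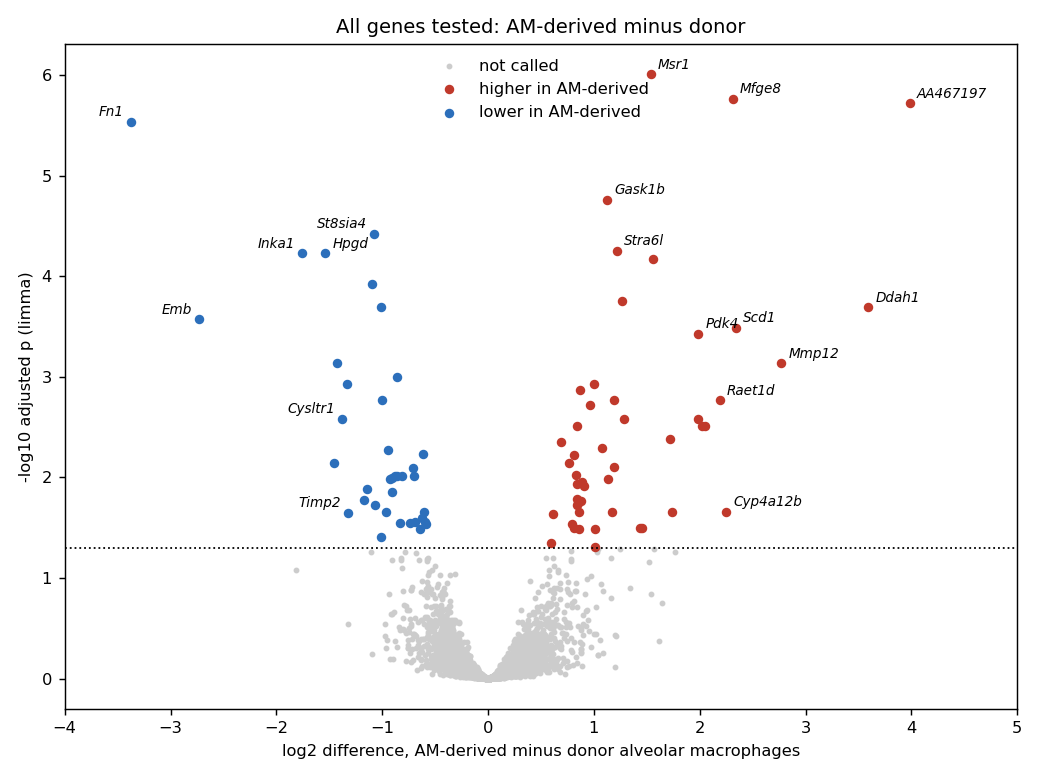
Each point is a gene: the x axis gives the log2 difference of AM-derived minus donor alveolar macrophages and the y axis the negative log10 of limma's adjusted p, with the dotted line at 0.05. Of 12244 genes, 49 (red) lay higher and 37 (blue) lower, and the bulk of the genes sat near a difference of 0.

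AA467197, listed by RefSeq also as Nmes1, showed the largest rise. It read 9.22, 9.25, 9.61 and 9.49 in AM-derived macrophages, against 4.41, 5.94, 6.20 and 5.08 in donor cells. The AM-derived arrays lay close together and far above the donor arrays, which spread from dim to moderate. The log2 difference was 3.98 ± 0.45 (SE; adjusted p = 1.9e-06), a 15.8-fold higher level. The rule for named genes leaves out symbols of this form, so this gene was added after its values were seen. The rule also takes the largest rises and falls only where the arrays of the groups do not overlap. Non-overlap of those genes below was thus set by the choice.

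Ddah1 encodes an enzyme that degrades methylated arginines, inhibitors of nitric oxide synthesis. It read 9.85, 8.07, 7.48 and 8.91 in AM-derived macrophages, against 5.04, 4.84, 5.01 and 5.04 in donor cells. The donor arrays were uniformly near the dim level, while the AM-derived arrays differed among themselves by more than 2 log2 units, and no array overlapped. The log2 difference was 3.59 ± 0.55 (SE; adjusted p = 0.000204), or 12.1-fold. Mmp12, the macrophage elastase, read 9.19, 9.23, 8.79 and 9.67 in AM-derived macrophages, against 6.12, 6.54, 7.09 and 6.06 in donor cells. Every AM-derived array lay above every donor array, and the level was 6.82-fold higher (log2 2.77 ± 0.46, adjusted p = 0.000729).

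Scd1, the desaturase that makes monounsaturated fatty acids, read 10.00, 9.20, 8.89 and 9.24 in AM-derived macrophages, against 6.92, 7.44, 6.89 and 6.73 in donor cells. The groups were separate, with a 5.06-fold higher level after transfer (log2 2.34 ± 0.37, adjusted p = 0.000323). Mfge8, a secreted bridge between dying cells and the phagocyte, read 7.96, 7.97, 7.62 and 7.71 in AM-derived macrophages, against 5.67, 5.36, 5.64 and 5.35 in donor cells. Both groups were tight, and the level was 4.96-fold higher (log2 2.31 ± 0.26, adjusted p = 1.71e-06). Msr1, the class A scavenger receptor, read 8.35, 8.14, 7.70 and 8.04 in AM-derived macrophages, against 6.64, 6.43, 6.46 and 6.56 in donor cells. The 2.9-fold difference had the lowest adjusted p of all genes (log2 1.54 ± 0.16, adjusted p = 9.79e-07). Pdk4, a kinase that restrains the use of pyruvate in mitochondria, read 8.0, 7.32, 7.74 and 7.54 in AM-derived macrophages, against 5.79, 6.51, 5.41 and 4.96 in donor cells. It was 3.95-fold higher, with no array overlapping (log2 1.98 ± 0.32, adjusted p = 0.000371).

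Plpp3, a phosphatase of lipid phosphates, averaged 6.91 ± 0.54 in AM-derived macrophages and 5.19 ± 1.01 in donor cells (SD, n = 4 each). Its 3.29-fold difference had an adjusted p of 0.00419 in limma, and 0.248 with the 8 arrays alone. Pla2g2d, a secreted phospholipase, read 7.36, 6.25, 5.27 and 7.07 in AM-derived macrophages, against 4.82, 4.43, 4.33 and 4.29 in donor cells. Since the donor level was dim, the rise was at least 3.64-fold (adjusted p = 0.00307), with an adjusted p of 0.0581 with the 8 arrays alone. Awat1, an acyltransferase that makes wax esters, rose at least 3.14-fold (adjusted p = 0.0026), and the cytokine Il1f9 at least 1.5-fold (adjusted p = 0.0218). Raet1d, a ligand of the killer cell receptor NKG2D, was 4.56-fold higher (adjusted p = 0.00171). Cyp4a12b, a fatty acid hydroxylase, rose at least 1.45-fold (adjusted p = 0.0219). Leaving out 1 array at a time ended the calls of Il1f9 in 5 of 8 settings (highest adjusted p 0.134) and of Cyp4a12b in 6 of 8 (highest adjusted p 0.123). Raet1d and Cyp4a12b have near-identical relatives, so their probe sets may have read those as well. Rgcc, a regulator of the cell cycle, was 2.95-fold higher (adjusted p = 6.78e-05) and Tcim at least 2.6-fold higher (adjusted p = 0.0318). Lipn, of the acid lipase family, passed with a log2 difference of 1.46 ± 0.35 (SE; adjusted p = 0.0322), but both group means were dim and no fold is given. The calls of Tcim and Lipn were lost in 5 and 7 of the 8 settings that left out 1 array, with highest adjusted p-values of 0.186 and 0.148.

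Further rises were chosen for naming after their values were seen. Ch25h, which makes 25-hydroxycholesterol, read 9.77, 9.57, 9.85 and 9.19 in AM-derived macrophages, against 8.43, 8.31, 8.28 and 8.22 in donor cells, a 2.43-fold difference (adjusted p = 0.0026). Lpcat2, an acyltransferase of phosphatidylcholine, was 2.41-fold higher (adjusted p = 0.000176), and Chpt1, a choline phosphotransferase of the same lipid's synthesis, 1.7-fold higher (adjusted p = 0.00716, and 0.061 with the 8 arrays alone). Trem2, a lipid-binding receptor of macrophages, read 8.14, 8.38, 8.14 and 8.70 in AM-derived macrophages, against 7.24, 7.40, 7.73 and 7.75 in donor cells. Its 1.76-fold rise had an adjusted p of 0.00596, and 0.11 with the 8 arrays alone. Pdpn, the mucin-like glycoprotein podoplanin, was 2.19-fold higher (adjusted p = 0.0104), and it lost its call in 2 of 8 settings that left out 1 array, with a highest adjusted p of 0.0769 among the 8.

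Fn1, the matrix glycoprotein fibronectin, fell furthest. It read 6.61, 7.14, 6.36 and 5.82 in AM-derived macrophages, against 10.35, 10.19, 10.09 and 8.81 in donor cells. Donor replicate 4 lay apart below the other donor arrays and was still higher than every AM-derived array. The log2 difference was -3.38 ± 0.40 (SE; adjusted p = 2.9e-06), a 10.4-fold lower level. Emb, embigin, a membrane partner of monocarboxylate transporters, read 5.83, 6.10, 6.19 and 5.24 in AM-derived macrophages, against 8.40, 8.68, 8.62 and 8.58 in donor cells. It was 6.63-fold lower, with a narrow spread among donor arrays (log2 -2.73 ± 0.43, adjusted p = 0.000268). Inka1, an inhibitor of the kinase PAK4, read 4.65, 4.41, 4.59 and 5.14 in AM-derived macrophages, against 6.22, 6.30, 6.75 and 6.55 in donor cells. It was 3.37-fold lower (log2 -1.75 ± 0.25, adjusted p = 5.89e-05), with AM-derived arrays near the dim level.

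Hpgd, which inactivates prostaglandins, read 3.70, 3.91, 3.71 and 4.01 in AM-derived macrophages, against 4.61, 4.98, 5.81 and 6.07 in donor cells. It was dim on all AM-derived arrays, so the fall was at least 1.68-fold (adjusted p = 5.89e-05), and the adjusted p was 0.0557 with the 8 arrays alone. Cysltr1, a receptor for cysteinyl leukotrienes, read 4.44, 4.89, 4.07 and 4.73 in AM-derived macrophages, against 6.44, 5.21, 6.24 and 5.76 in donor cells. It fell at least 2.44-fold (adjusted p = 0.0026), with an adjusted p of 0.072 with the 8 arrays alone. Arhgap15, which switches off the small GTPase Rac, fell at least 1.73-fold (adjusted p = 0.000729), and Qpct, which forms the blocked amino end of some secreted peptides, at least 1.88-fold (adjusted p = 0.00117). With the 8 arrays alone the adjusted p of Qpct was 0.103.

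Timp2, an inhibitor of matrix metalloproteinases, read 6.45, 7.02, 6.56 and 7.36 in AM-derived macrophages, against 7.94, 8.07, 8.28 and 8.39 in donor cells. It was 2.5-fold lower (adjusted p = 0.0225). The call was lost in 4 of 8 settings that left out 1 array, with a highest adjusted p of 0.106 among the 8. Krt80, a keratin, was 2.14-fold lower (adjusted p = 0.000119), and St8sia4, which adds polysialic acid, 2.11-fold lower (adjusted p = 3.79e-05). Atrnl1 was 2.25-fold, Adgrl3 (an adhesion receptor) 2.1-fold and Tceal8 2.01-fold lower, with adjusted p-values of 0.0169, 0.0189 and 0.000204. With the 8 arrays alone these were 0.0756, 0.0957 and 0.0729. Egfem1 fell at least 1.32-fold and Gbe1, the glycogen branching enzyme, at least 1.26-fold (adjusted p = 0.00716 and 0.0129). Leaving out 1 array ended the calls of Atrnl1 in 5 of 8 settings (highest adjusted p 0.126), of Adgrl3 in 4 (0.135) and of Gbe1 in 1 (0.1).

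**Figure D2:**
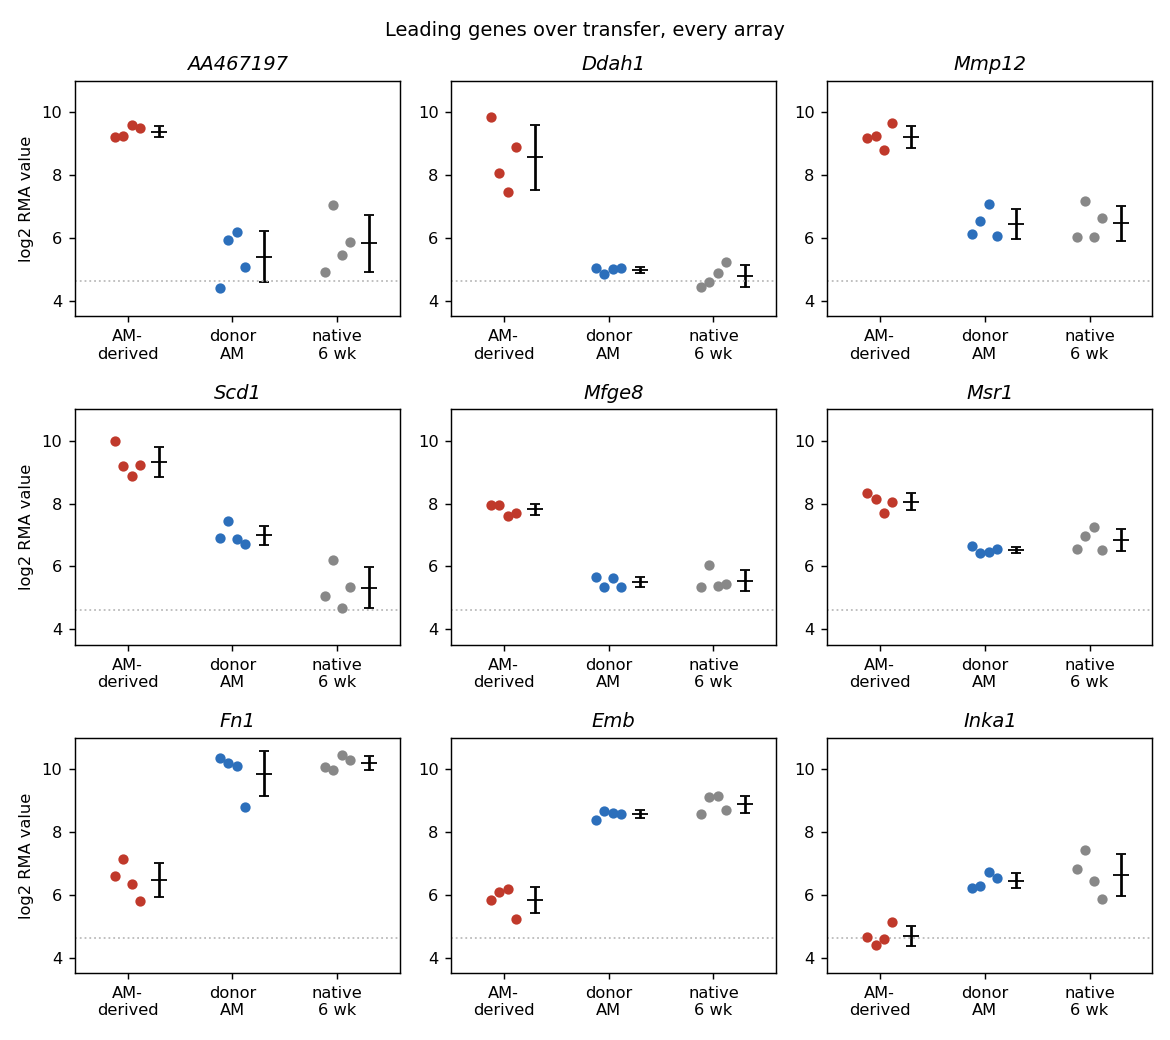
Log2 RMA value on every array for 6 genes that were higher and 3 that were lower in AM-derived macrophages, with each group's mean and SD (bars) and the table median (dotted). For each of the 9 genes no AM-derived array overlapped a donor array, which the rule for named genes required of all but AA467197. Native 6-week macrophages lay near the donor cells, apart from Scd1, which was lower still in native cells.

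Gene lists chosen by function were read against the 0.702% of all genes called, a share at which most lists would hold no call, so 0 calls in a list is near the background. The choice was made with earlier results of these data known, so a share above the background does not show an excess. Of 34 genes on a list of alveolar macrophage identity 29 were tested, of which Cdh1 rose and Fcgr1 fell, and 27 did not pass. The 2 calls were 6.9% of the list. An unadjusted p under 0.05 held for 8 of the 29 (27.6%), beside 8.50% of all genes tested, and the arrays did not overlap for 7 (24.1%), beside 4.46%. The median log2 difference of the list was 0.03, beside -0.01 for all genes tested, with a range from -0.77 to 0.84. For 26 of the 29 genes (89.7%) the 95% interval of the difference lay within 1 log2 unit in either direction, beside 95.6% of all genes tested. Chil3, a secreted chitinase-like protein and a very abundant transcript of these cells, averaged 12.86 ± 0.02 in AM-derived macrophages and 12.91 ± 0.06 in donor cells (SD, n = 4 each). Cdh1, E-cadherin, read 8.84, 8.39, 8.22 and 8.08 in AM-derived macrophages, against 7.57, 7.80, 7.59 and 7.19 in donor cells, a 1.79-fold rise (adjusted p = 0.0189). Fcgr1, the high-affinity receptor for IgG, read 7.93, 7.94, 8.0 and 8.15 in AM-derived macrophages, against 8.72, 8.74, 8.20 and 8.75 in donor cells, a 1.51-fold fall (adjusted p = 0.0275). Both calls were lost when single arrays were left out, in 3 of 8 such settings for Cdh1 (highest adjusted p 0.125) and in 6 of 8 for Fcgr1 (highest adjusted p 0.108).

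None of the 13 genes of a panel of identity and lineage markers passed the test, a count near the background of 0.702%, and 2 had an unadjusted p under 0.05. Pparg, the nuclear receptor that drives alveolar macrophage identity, read 10.24, 9.88, 10.10 and 9.83 in AM-derived macrophages, against 10.53, 10.31, 10.33 and 10.14 in donor cells. The groups overlapped, and the log2 difference of -0.31 had a 95% interval from -0.61 to -0.02 (adjusted p = 0.534). Car4, a membrane carbonic anhydrase, differed by 0.10 (interval -0.19 to 0.40) and Fabp4, a fatty acid carrier, by -0.10 (interval -0.53 to 0.32). Marco, a scavenger receptor of lung macrophages, averaged 9.66 ± 0.34 in AM-derived macrophages and 9.08 ± 0.49 in donor cells (SD, n = 4 each). Its difference of 0.58 did not pass (adjusted p = 0.19) and passed when donor replicate 2 was left out (adjusted p = 0.0432). Ccr2, a chemokine receptor of monocytes, differed by -0.14 (interval -0.58 to 0.30), and Itgam, the integrin CD11b, was dim in both groups. The proliferation gene Mki67 averaged 7.01 ± 0.57 in AM-derived macrophages and 6.61 ± 0.71 in donor cells (SD, n = 4 each), with an interval of the difference from -0.33 to 1.13.

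**Figure D3:**
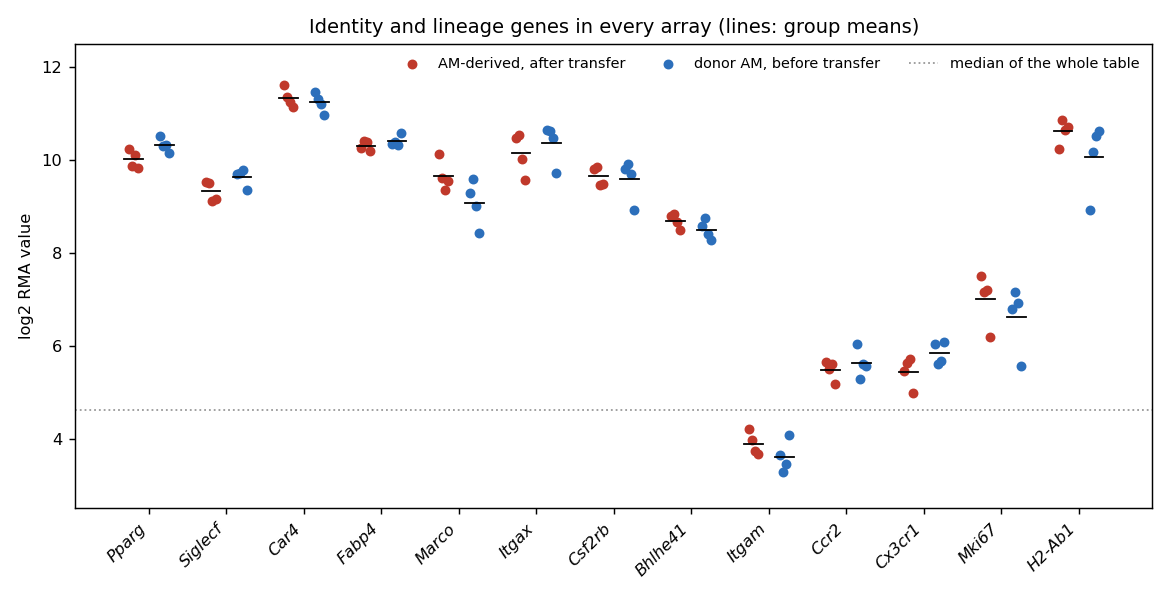
Log2 RMA value on every array (points) and group means (lines) for the 13 genes of the identity and lineage panel, AM-derived macrophages in red and donor cells in blue, with the table median dotted. The groups overlap for each of the 13 genes, from Car4 near 11 to Itgam below the median.

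The receptor for GM-CSF and its signalling partners showed no call in 18 genes tested, of which 1 higher and 2 lower had an unadjusted p under 0.05. Csf2ra, the alpha chain of the receptor, differed by -0.29 (adjusted p = 0.739), and Csf2rb by 0.07 (adjusted p = 0.971). Ccl17, a chemokine that GM-CSF induces in macrophages, read 7.69, 7.89, 6.54 and 10.21 in AM-derived macrophages, against 5.69, 6.52, 6.92 and 6.74 in donor cells. Its difference of 1.61 did not pass (adjusted p = 0.419), and the groups overlapped.

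On the list of lipid uptake, storage and efflux 2 of 28 genes tested rose, Msr1 and Abca1, and 0 fell, beside 0.4% higher and 0.302% lower over all genes. The median of the list was -0.04. Abca1, which exports cholesterol from macrophages, read 7.76, 7.61, 7.58 and 7.71 in AM-derived macrophages, against 6.90, 7.13, 7.09 and 6.31 in donor cells. The 1.75-fold rise had an adjusted p of 0.0322 and lost its call in 6 of 8 settings that left out 1 array (highest adjusted p 0.142). Cidec, a protein of lipid droplets, differed by -0.74 (adjusted p = 0.257), Apoe, a lipid carrier, by -0.84 (adjusted p = 0.309) and Cd36, a fatty acid receptor, by 0.28 (adjusted p = 0.514).

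Scd1 was the single call among 17 genes of fatty acid synthesis, and Pdk4 the single call among 20 genes of fatty acid oxidation. Fasn, the fatty acid synthase, differed by -0.37 (adjusted p = 0.696) and Scd2, a second desaturase, by 0.75 (adjusted p = 0.426). Of 20 genes of cholesterol synthesis none was called, and 18 had a negative difference. An unadjusted p under 0.05 held for 7 (35%, beside 8.50% of all genes), all lower. The median of the list was -0.29, beside -0.18 for AM-derived minus native cells and 0.08 for the other derived groups minus native cells. Sqle, squalene epoxidase, averaged 6.59 ± 0.61 in AM-derived macrophages and 7.40 ± 0.33 in donor cells (SD, n = 4 each; adjusted p = 0.248). Hmgcs1, an early enzyme of the pathway, averaged 8.12 ± 0.42 in AM-derived macrophages and 8.79 ± 0.25 in donor cells (SD, n = 4 each; adjusted p = 0.275). No gene of the lysosome list passed among 33 tested, and 32 of their intervals (97%) lay within 1 log2 unit, beside 95.6% of all genes.

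Of 23 genes tested on the list of matrix genes and proteases Mmp12 rose, and Fn1, Timp2 and Napsa fell, which makes 17.4% called beside 0.702% of all genes. The list was chosen with earlier results of these data known, so this share does not show an excess. Fn1 is also on the list of monocyte markers. Napsa, an aspartic protease also made by lung epithelium, read 7.36, 7.37, 7.63 and 6.81 in AM-derived macrophages, against 8.19, 8.22, 8.46 and 8.33 in donor cells. Its 2.01-fold fall had an adjusted p of 0.0392 and lost its call in 7 of 8 settings that left out 1 array (highest adjusted p 0.22). Among 27 scavenger and phagocytic receptors tested, Msr1 and Mfge8 rose and Fcgr1 fell.

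Ccl22, a chemokine for T cells, was the single call among 30 inflammatory mediators, of which 7 (23.3%) had an unadjusted p under 0.05, beside 8.50% of all genes. It read 7.76, 7.74, 7.17 and 7.23 in AM-derived macrophages, against 6.46, 6.91, 6.81 and 5.69 in donor cells, a 2.01-fold rise (adjusted p = 0.0322) that was lost in 4 of 8 settings that left out 1 array (highest adjusted p 0.148). Junb, an early response factor, was the single call among 26 immediate early genes. It was 1.62-fold lower (adjusted p = 0.0275), with the call lost in 6 of 8 such settings (highest adjusted p 0.104). The median of that list was -0.17, and 6 genes (23.1%), all lower, had an unadjusted p under 0.05. None of 25 genes of heat shock and the unfolded protein response was called, with 6 (24%), all lower, at an unadjusted p under 0.05 and a median of -0.18. AM-derived minus native 6-week macrophages gave medians of -0.06 for the immediate early list and -0.05 for the heat shock list. Ddit3, the stress factor CHOP, averaged 6.94 ± 0.14 in AM-derived macrophages and 7.51 ± 0.25 in donor cells (SD, n = 4 each; adjusted p = 0.063).

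Ccnd1, cyclin D1, was the single call among 38 cell cycle genes. It read 6.20, 5.95, 5.49 and 5.06 in AM-derived macrophages, against 4.78, 4.65, 4.49 and 4.10 in donor cells, at least 2.07-fold higher (adjusted p = 0.0218), and lost its call in 4 of 8 settings that left out 1 array (highest adjusted p 0.121). The list's median was 0.16, beside -0.03 for AM-derived minus native 6-week macrophages. An unadjusted p under 0.05 held for 7 genes (18.4%, beside 8.50% of all genes), all higher, among them Foxm1 (0.62, adjusted p = 0.159). Nfil3, a clock-linked repressor, read 7.63, 7.82, 8.07 and 7.84 in AM-derived macrophages, against 8.66, 8.73, 8.67 and 8.57 in donor cells, a 1.76-fold fall (adjusted p = 0.00958). It was the single call among 18 circadian genes, and the call was lost without AM-derived replicate 1 (adjusted p = 0.057).

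Interferon response genes gave 0 calls among 32, with 5 higher and 0 lower at an unadjusted p under 0.05 and a median of 0.18. Ifi27l2a, an interferon-induced gene, read 10.23, 11.23, 11.51 and 11.97 in AM-derived macrophages, against 9.15, 9.18, 9.97 and 10.36 in donor cells (log2 1.57, adjusted p = 0.0509). The lowest AM-derived array lay below the highest donor array. The 11 genes of MHC class II presentation gave 0 calls. An unadjusted p under 0.05 held for 3 of them (27.3%, beside 8.50% of all genes), 1 higher and 2 lower. The arrays did not overlap for 4 (36.4%, beside 4.46%). The intervals of 5 (45.5%) lay within 1 log2 unit, beside 95.6% of all genes. H2-Ab1, a chain of the class II molecule, averaged 10.62 ± 0.27 in AM-derived macrophages and 10.06 ± 0.78 in donor cells (SD, n = 4 each; adjusted p = 0.799). Of 36 lists besides the panel 22 held no called gene, among them TGF-beta signalling, MHC class I, iron handling, complement, glycolysis and the respiratory chain.

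**Figure D4:**
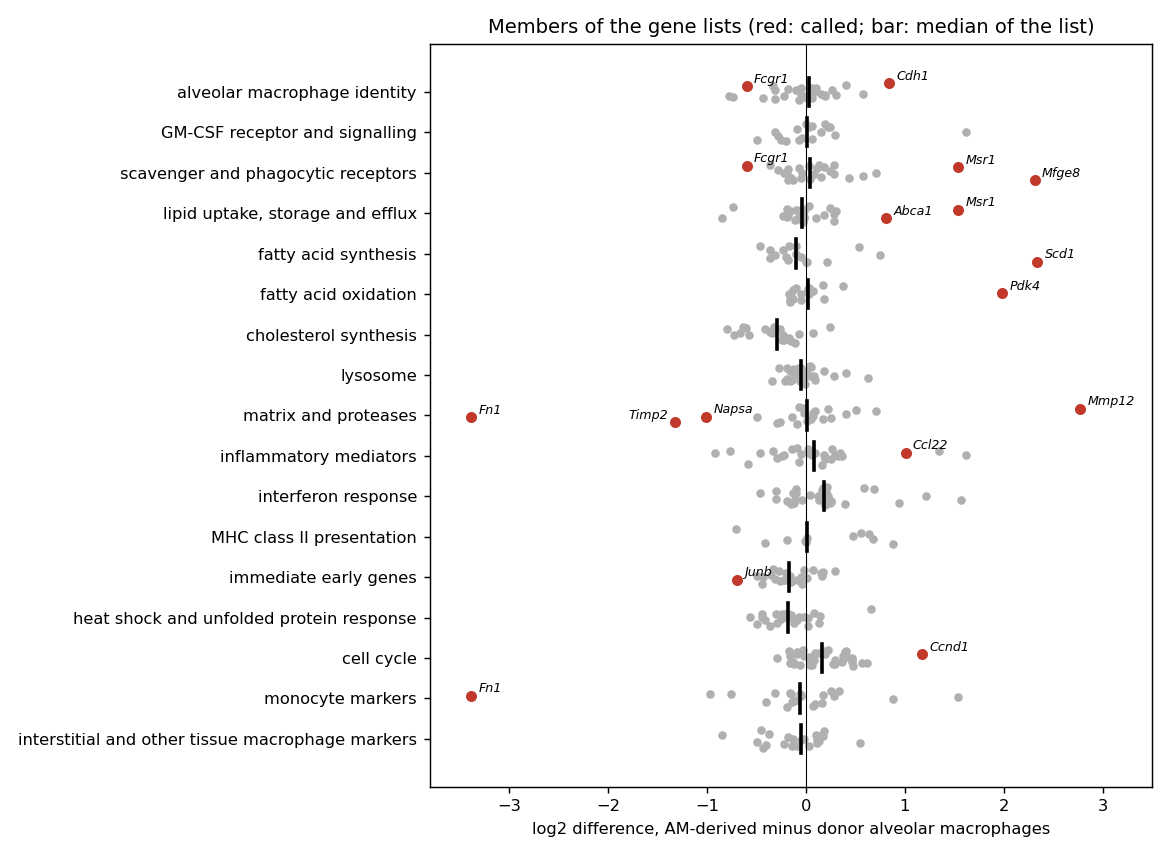
Log2 difference of AM-derived minus donor alveolar macrophages for each tested gene of 17 lists; called genes are red and named, others grey, and the bar is the median of the list. The medians lie between -0.29 (cholesterol synthesis) and 0.18 (interferon response), and no list has more than 4 called genes.

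On 7 lists, markers of other cells that a sort could hold were mostly dim. Both group means were dim for 13 of 18 neutrophil genes, 11 of 16 dendritic cell genes, 10 of 12 B cell genes, 15 of 17 T and NK cell genes, 14 of 15 eosinophil, mast cell and basophil genes, 14 of 20 endothelial and fibroblast genes and 6 of 8 erythroid genes on the array. Of the 49 entries tested on these 7 lists 0 were called, a count near the background of 0.702%, and 5 (10.2%) had an unadjusted p under 0.05. The neutrophil list held 4 of these 5, with 2 higher and 2 lower. The arrays did not overlap for 4 of its 15 genes (26.7%, beside 4.46% of all genes): Cxcr2 and Mmp8 were higher, and Csf3r and Lcn2 lower, on every AM-derived array than on any donor array. Of these, Mmp8, Csf3r and Lcn2 had an unadjusted p above 0.05. Cxcr2, a chemokine receptor on the neutrophil list, read 7.45, 6.94, 7.40 and 6.35 in AM-derived macrophages, against 5.57, 5.98, 5.82 and 4.70 in donor cells. The difference of 1.52 did not pass (adjusted p = 0.0701). The neutrophil list's mean over its genes ran between 4.78 and 4.95 on AM-derived arrays and between 4.68 and 5.09 on donor arrays, and its part in the result was not tested. Among 24 lung epithelium markers 9 were dim in both groups, and the 2 calls were Cdh1 and Napsa. Of 23 monocyte markers on the array only 7 were dim in both groups, and of 26 markers of interstitial and other tissue macrophages 15 were. Fn1 alone was called among the 23 monocyte markers tested. S100a4, a calcium-binding protein on the monocyte list, averaged 11.01 ± 0.37 in AM-derived macrophages and 9.47 ± 1.08 in donor cells (SD, n = 4 each; adjusted p = 0.143). In sorted bulk samples a smaller share of expressing cells and less RNA per cell cannot be told apart.

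Fewer genes passed between untransferred cells of the 2 sources. Native 6-week against donor alveolar macrophages gave 2 called genes (0.0163%), with 499 at an unadjusted p under 0.05. Clec1b, a C-type lectin-like receptor, read 5.93, 7.10, 5.93 and 6.48 in native cells, against 7.65, 8.59, 8.05 and 8.46 in donor cells. AM-derived macrophages read 8.43, 8.44, 8.34 and 8.41 and thus lay beside the donor cells. Tmem9, a membrane protein, read 4.97, 5.16, 4.76 and 4.42 in native cells, against 5.72, 5.61, 5.60 and 6.39 in donor cells. The count of 2 became 0 with these 8 arrays alone, 1 without donor replicate 4, native replicate 3 or native replicate 4, and 5 without native replicate 2. For the 86 genes called over transfer, the median difference of native minus donor cells was 0.04 over the higher and -0.05 over the lower genes. The largest absolute difference was 1.67 among the higher and 0.60 among the lower genes. These values share the donor arrays with the comparison that chose the 86 genes.

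Set against native 6-week macrophages, AM-derived macrophages had 131 called genes (1.07%), 93 higher (0.76%) and 38 lower (0.31%). This comparison shares its AM-derived arrays with the main comparison. Scd1 read 5.05, 6.22, 4.68 and 5.36 in native cells, so AM-derived macrophages were 16-fold higher than native cells (adjusted p = 3.58e-08) and 5.06-fold higher than donor cells. Fn1 averaged 6.48 ± 0.55 in AM-derived macrophages and 10.20 ± 0.23 in native cells (SD, n = 4 each), a 13.2-fold lower level. Pdpn was 4.53-fold higher than in native cells and 2.19-fold higher than in donor cells. Timp2 (difference -0.77, adjusted p = 0.386), Napsa (-0.58, adjusted p = 0.43), Nfil3 (-0.23, adjusted p = 0.752) and Qpct (-0.73, adjusted p = 0.164) did not pass against native cells.

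A comparison with no array in common set the mean of BM-, FL- and YS-derived macrophages, which spent the same 6 weeks in Csf2rb-/- lungs, against native 6-week macrophages. It called 227 genes (1.85%), of which 134 were higher (1.09%) and 93 lower (0.76%) in the derived groups. Of the 86 genes called over transfer of alveolar macrophages 60 were called there in the same direction, 36 higher and 24 lower, and 0 in the opposite direction. Without native replicate 1 the count of 227 was 150. The 60 made up 69.8% of the 86 and 26.4% of the 227. The sign was the same for 48 of the 49 higher and 35 of the 37 lower genes. The median difference of the higher genes was 1.12 in both comparisons, and that of the lower genes was -0.95 for AM-derived minus donor cells and -0.71 for the other derived groups minus native cells. The genes were chosen by the first of these differences, so its medians are enlarged by that choice. Both comparisons took the spread of each gene from the same fit. The share of equal signs over all genes tested was not counted.

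Ddah1 averaged 6.71 in BM-, 7.19 in FL- and 10.75 in YS-derived macrophages, against 4.79 ± 0.35 in native cells (SD, n = 4). Its level thus differed widely among the derived groups, with AM-derived macrophages between. Mfge8 averaged 8.09, 8.14 and 8.44 in BM-, FL- and YS-derived macrophages, against 5.55 ± 0.32 in native cells, and Mmp12 8.64, 8.71 and 9.62, against 6.46 ± 0.56. Emb averaged 5.44, 6.91 and 5.80 in the BM-, FL- and YS-derived groups, against 8.89 ± 0.28 in native cells. Fn1 averaged 7.38, 9.40 and 9.12 in these groups, against 10.20 ± 0.23 in native cells, a difference of -1.57 ± 0.32 (SE; adjusted p = 0.00317). AM-derived macrophages, at 6.48, held the lowest mean of Fn1 among the 4 derived groups.

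**Figure D5:**
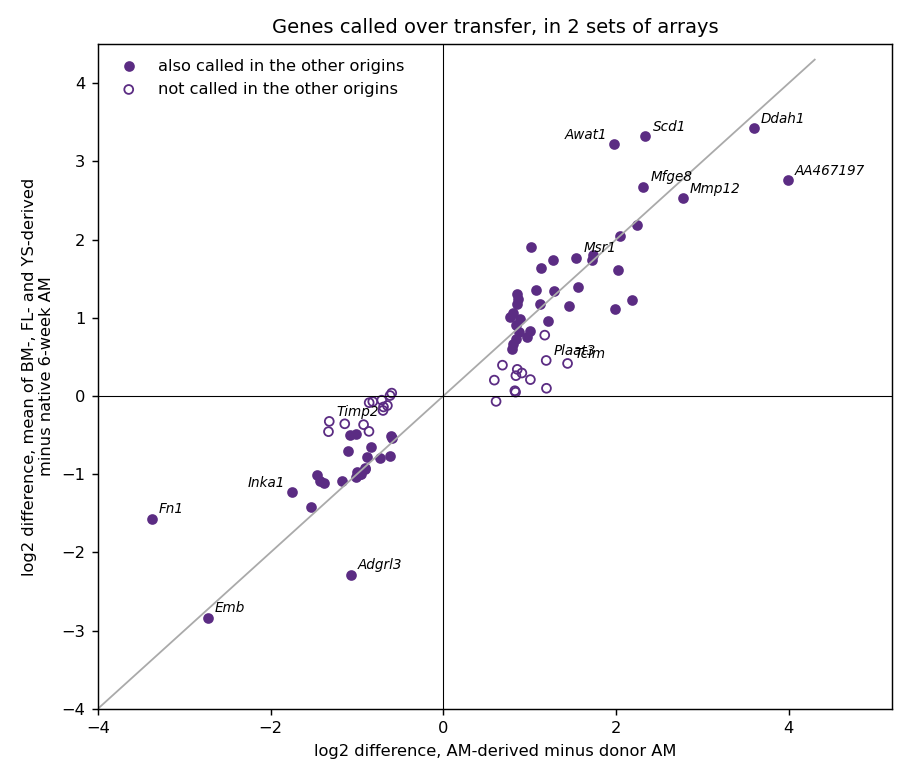
Each point is 1 of the 86 genes called in AM-derived minus donor alveolar macrophages (x axis, log2 difference); the y axis gives the log2 difference of the mean of BM-, FL- and YS-derived macrophages minus native 6-week macrophages, from other arrays, and the line marks equal differences. Filled points (60) were called in both; 83 of the 86 points lie in the 2 quadrants of equal sign.

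Whether the 2 differences themselves differed was tested gene by gene in the same fit. Slc27a1, a fatty acid transporter, was the single gene of 12244 that passed (0.00817%), with 641 at an unadjusted p under 0.05. It read 6.38, 5.74, 6.16 and 5.74 in AM-derived macrophages, against 6.29, 5.71, 6.21 and 6.29 in donor cells, whereas BM-, FL- and YS-derived macrophages averaged 7.40, 7.41 and 7.67, against 5.81 ± 0.09 in native cells. The difference between the 2 comparisons was -1.81 on the log2 scale (adjusted p = 0.00054). The count of genes rose to 5 without donor replicate 3, to 3 without AM-derived replicate 1, native replicate 2 or FL-derived replicate 3, and to 2 without YS-derived replicate 4. None of the 86 genes passed this test, the lowest adjusted p being 0.227, and 31 of them had an unadjusted p under 0.05. Among these were Fn1 (difference -1.81, adjusted p = 0.451), Adgrl3 (1.21, adjusted p = 0.275) and Awat1 (-1.24, adjusted p = 0.823). The 86 genes were chosen by 1 of the 2 differences, on the same arrays. A low unadjusted p among them is therefore partly set by that choice and does not show that the 2 differences differ.

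Some genes called over transfer of alveolar macrophages were not called in the other derived groups. Timp2 differed there by -0.33 (adjusted p = 0.875), Plaat3, a phospholipase and acyltransferase, by 0.45 (adjusted p = 0.336), Ccl22 by 0.21 (adjusted p = 0.919), Nfil3 by -0.07 (adjusted p = 0.975), Junb by -0.14 (adjusted p = 0.919) and Fcgr1 by 0.04 (adjusted p = 0.986). Their differences from the values over transfer did not pass the test above. More genes were called over transfer of the other donor cells, with 4453 (36.4%) for BM-derived macrophages against bone marrow monocytes, 4693 (38.3%) for FL-derived macrophages against fetal liver monocytes and 5250 (42.9%) for YS-derived macrophages against yolk sac macrophages. For 73.8%, 71.5% and 68.7% of genes in these comparisons the 95% interval lay within 1 log2 unit, beside 95.6% for AM-derived minus donor alveolar macrophages. These counts were not tested against each other.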

How the data were processed

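Sorted mouse cells were profiled on Affymetrix Mouse Gene 1.0 ST arrays. The labels' design notes record an amplification of the RNA. The authors deposited a table of log2 intensities for 35556 probe sets. RMA is the tool that the submitters' processing notes name, without a version. It equalises the distributions of arrays, which removes any shift common to most genes, and it shrinks small differences of dim genes. The number of arrays limits the precision.

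Probe sets were named through GEO's platform annotation. Of these 21789 had 1 symbol and were used, 1621 had several and 12146 had none. Symbols were updated through RefSeq genes (21698 matched, 91 kept the old symbol). The brightest probe set stood for each of 999 genes that had more than 1, giving 19938 genes. Testing was limited to the 12244 genes above the table median in at least 4 arrays.

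With limma 3.58.1 (R 4.3.3), group means were fitted over the 36 arrays together, which pools the spread of the 9 groups. Benjamini-Hochberg adjustment ran per comparison over all genes tested, and a call means an adjusted p under 0.05. Folds are 2 to the power of the difference. A mean under the table median was replaced by it, and the fold is then given as "at least". Levels are mean ± SD and differences ± SE. On simulated data of 12244 genes for AM-derived minus donor cells, 96% of changes of log2 1 and 100% of log2 2 were recovered, with 7 false calls (3.45%). The simulated noise was normal, independent between arrays and equally wide in all groups for a given gene, as the model assumes. These rates check the code and do not give the rates in the real data.

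The members and the 36 gene lists (872 entries) were chosen with earlier results of these data known. The text names the 13 panel genes, the 15 largest called rises and 15 largest called falls whose arrays do not overlap (predicted and clone symbols left out), and up to 4 members per list by adjusted p. Genes named outside this rule, such as Chil3, Fasn, Foxm1, S100a4 and those marked in the text, were chosen after their values were seen. Alternatives changed the filter, the arrays in the fit, the spread model, array weights, centring, normalisation, probe set choice and a replicate block, and left out each array in turn.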

Additional observations from a re-analysis of the deposited data

Results flagged for a closer look

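Of 212 groups of 4 arrays checked over 106 named genes, 7 (3.30%) held an array far from the other 3, beside about 5% from chance. Lipn read 3.46 in AM-derived replicate 3, below 4.61 to 4.81 on the other AM-derived arrays. Mamld1 read 7.39 in AM-derived replicate 2, above 6.88 to 6.94 on the others. Among donor alveolar macrophages, Fn1 read 8.81 in replicate 4, below 10.09 to 10.35, and Qpct read 6.50 there, above 5.13 to 5.35. Tmem9 was highest in the same replicate, at 6.39 beside 5.60 to 5.72. Fcgr1 read 8.20 in donor replicate 3, below 8.72 to 8.75, and Slc27a1 read 5.71 in donor replicate 2, below 6.21 to 6.29.

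Slc27a1 was also noted because its 2 differences differed by test. AM-derived minus donor cells and the other derived groups minus native cells were -1.81 apart on the log2 scale (limma, adjusted p = 0.00054).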

How the results depend on the processing

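The count of genes higher and lower in AM-derived than in donor alveolar macrophages, 49 and 37, became 31 and 14 with the compared groups alone. With both arrays numbered 4 left out, added after the data were seen, it became 29 and 18. Leaving out 1 array at a time gave 34 to 48 higher and 23 to 36 lower genes. The other settings stayed within 1.5 times of the main counts. Native minus donor cells gave 0 genes with the compared groups alone and 1 to 5 with 1 array left out, beside 2. The other derived groups minus native cells gave 150 to 242 genes with 1 array left out, beside 227. The test of the difference of differences gave 4 genes with the compared groups alone, 3 with array weights, 4 with quantile-normalised alveolar macrophage arrays, 2 with all probe sets and 1 to 5 with 1 array left out, beside 1. The compared groups alone and the settings with fewer arrays have fewer samples to estimate the spread. Elsewhere the cause was not tested.

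Among 1772 values of 99 genes, the 86 called and the 13 of the panel, 313 lost their call under an alternative, 1 of the panel gained a call (Marco) and 0 changed sign while called. Genes outside these 99 also gained calls: array weights called 101 genes, of which 77 were among the 86, median-centred arrays 100 (86 among them) and the compared groups alone 45 (37 among them). No sign of the 86 genes changed. Whether the replicate numbers shared by AM-derived and donor arrays mark a pairing was not settled. Same-numbered arrays had correlations of deviations of 0.21, 0.19, -0.01 and 0.42 for numbers 1 to 4. The same AM-derived arrays averaged -0.02, -0.02, -0.01 and -0.20 with donor arrays of other numbers. Only 2 of 4 correlated best with their own number. The replicate block gave 50 higher and 39 lower genes.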
